A study of Mus musculus with 38 samples.

Results

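Base unpairing regions (BURs) are stretches of DNA that SATB1 bound in vitro, and 483 of the 232068 BURs on chromosomes 1 to 19 and X were bound by SATB1 in thymocytes or skin but had no peak in brain. These brain-free BURs were chosen by measured values: a peak of both thymocyte libraries or of both skin libraries shared at least 1 bp with the BUR, and no peak of either brain library did. Of all BURs, 26260 had a peak in both thymocyte libraries (11.3%) and 7236 had one in both skin libraries (3.12%). Of the 26726 BURs bound in either tissue, 25724 also had a peak in both brain libraries, 519 had one in 1 brain library, and the 483 brain-free BURs made up 1.81%. Which peaks chose the regions is therefore given as a description, without a test. The number depended on single lists: it was 929 when thymocyte replicate 1 was left out and 824 when brain replicate 1 was left out, which were 3.06% and 3.08% of the BURs then bound. The brain lists were also the largest, with 117963 and 109154 peaks against 45049 and 38882 in thymocytes and 11210 and 10846 in skin, and 4150 BURs met the rule when each brain list was cut to its 38882 peaks of highest −log10 q.

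The study mapped direct SATB1 binding with urea ChIP-seq and set it against standard ChIP-seq and against CTCF. In the urea protocol, fixed chromatin is spun through a urea cushion, which strips off proteins held only indirectly, and sheared afterwards. All cells came from C57BL/6 mice wild type for Satb1: thymocytes, skin (primary epidermal keratinocytes) and brain (cortex), each with 2 libraries made with the home-made SATB1 antibody 1583D. Standard SATB1 ChIP-seq in thymocytes had 2 libraries, replicate 1 with the antibody ab109122 and replicate 2 with 1583D, and CTCF urea ChIP-seq had 1 list each in thymocytes and skin. The BUR map was 1 library of thymus DNA fragments bound by SATB1 protein in vitro. The labels gave an age of P13 for thymocytes and skin and of 5 and 6 weeks for the brain replicates, but the protocol text gave P13 for brain and P5 for skin, the titles of standard replicate 1 and of the thymocyte CTCF library gave 6w, and the study's methods gave other ages again for brain and skin. Both brain libraries carried 1 experiment number and were labelled 10 and 12 cycles, both skin libraries shared a number and were labelled 55 and 60 s, and both thymocyte libraries shared a number and were labelled 4 and 2 µl of antibody. The study describes its replicates as cells of different animals, but the labels tie no library to an animal and paired libraries share an experiment number, so the spread between them may be technical. Replicates are numbered here as in the labels, and the study numbers the thymocyte urea libraries the other way round. Tissue, age and preparation cannot be told apart. With 2 libraries against 2, an exact permutation test cannot give a two-sided p below 0.333, so no difference between tissues was tested.

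SATB1 is a nuclear protein of T cell progenitors, neurons and basal epidermal cells that folds chromatin and anchors specialised DNA. A BUR is rich in A and T and holds runs in which 1 strand carries only A, T and C, so that 1 strand lacks G and the other lacks C, and such DNA unwinds easily under torsion. SATB1 binds the minor groove of this DNA and reads the context rather than a fixed motif.

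The brain-free BURs fell into several patterns. The largest held 284 BURs bound in both skin libraries and in no thymocyte library. Another 99 were bound in both thymocyte libraries and in no skin library, and 46 in both libraries of both tissues. The rest comprised 44 with both skin peaks and 1 thymocyte peak and 10 with both thymocyte peaks and 1 skin peak. The patterns differed in how rare a missing brain peak was: it was missing at 99 of the 17235 BURs bound in thymocytes only (0.574%), at 46 of the 6770 bound in both tissues (0.679%), and at 284 of the 325 bound in skin only (87.4%). Skin-only binding of a BUR was thus itself rare, and 20 such BURs had peaks in both brain libraries.

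Sequences from brain-free BURs are shown here, each up to 300 bp around the in vitro summit, read 5′ to 3′ on the plus strand of NCBIM37 (mm9). Capitals mark the longest run in the window that lacks C or lacks G. The first pair, which was bound in thymocytes only, is an intergenic region nearest to Bcor, which encodes a transcriptional corepressor, and an intergenic region nearest to 4930555F03Rik that carries a run of TTA triplets.
chrX:11318083-11318382, thymocytes only: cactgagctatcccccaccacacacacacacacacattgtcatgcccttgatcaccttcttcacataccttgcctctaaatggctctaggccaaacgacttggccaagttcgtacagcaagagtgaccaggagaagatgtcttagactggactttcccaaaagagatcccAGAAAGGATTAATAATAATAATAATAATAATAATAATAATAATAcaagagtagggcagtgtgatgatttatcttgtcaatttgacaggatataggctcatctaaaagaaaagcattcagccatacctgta
chr8:50736005-50736304, thymocytes only: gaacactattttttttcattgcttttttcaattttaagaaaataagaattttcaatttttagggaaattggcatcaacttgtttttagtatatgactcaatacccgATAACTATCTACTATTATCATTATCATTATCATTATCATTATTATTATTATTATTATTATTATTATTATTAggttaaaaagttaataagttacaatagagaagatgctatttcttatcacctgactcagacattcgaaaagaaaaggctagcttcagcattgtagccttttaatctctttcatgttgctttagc

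The next sequence, in intergenic DNA nearest to the potassium channel gene Kcnh8, had the highest fold enrichment of any BUR bound in both thymocytes and skin but not brain.
chr17:52692150-52692449, thymocytes and skin: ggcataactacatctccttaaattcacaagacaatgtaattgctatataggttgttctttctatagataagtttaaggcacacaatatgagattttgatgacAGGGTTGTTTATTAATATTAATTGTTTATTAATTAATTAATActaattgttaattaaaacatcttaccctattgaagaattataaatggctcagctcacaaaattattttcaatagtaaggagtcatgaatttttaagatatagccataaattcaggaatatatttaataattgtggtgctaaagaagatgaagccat

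A pair of X-linked BURs is shown because they are copies of one another, yet 1 was called in skin only and the other in both tissues. They shared 313 of their 50-mers, which is 46.2% of those in the first and 67.5% of those in the second.
chrX:145361360-145361659, skin only: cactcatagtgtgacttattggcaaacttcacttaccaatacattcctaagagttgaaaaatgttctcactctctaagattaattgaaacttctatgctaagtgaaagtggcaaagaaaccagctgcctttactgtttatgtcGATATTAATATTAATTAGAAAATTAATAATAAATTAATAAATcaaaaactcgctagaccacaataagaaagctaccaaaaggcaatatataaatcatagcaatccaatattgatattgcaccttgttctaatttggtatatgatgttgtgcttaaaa
chrX:146263943-146264242, thymocytes and skin: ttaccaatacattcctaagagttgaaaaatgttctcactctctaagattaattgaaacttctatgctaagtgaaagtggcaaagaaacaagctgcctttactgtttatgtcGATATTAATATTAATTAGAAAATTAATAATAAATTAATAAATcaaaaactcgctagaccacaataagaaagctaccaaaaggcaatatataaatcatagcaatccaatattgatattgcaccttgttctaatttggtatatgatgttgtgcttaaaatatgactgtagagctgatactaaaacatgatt

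The skin-only BUR with the highest fold enrichment lies in an intron of Pcdh15, a cadherin of sensory hair cells, and has no C-free or G-free run over 19 bp in this window. The other sequence is the skin-only BUR over exon 9 of Satb1 itself.
chr10:72841814-72842113, skin only: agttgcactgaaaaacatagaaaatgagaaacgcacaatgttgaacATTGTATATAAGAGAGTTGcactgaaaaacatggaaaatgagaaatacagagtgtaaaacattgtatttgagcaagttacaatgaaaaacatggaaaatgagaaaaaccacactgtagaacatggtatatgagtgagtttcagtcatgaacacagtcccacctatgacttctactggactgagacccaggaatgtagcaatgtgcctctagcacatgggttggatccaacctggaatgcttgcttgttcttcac
chr17:51907096-51907395, skin only, Satb1 exon 9: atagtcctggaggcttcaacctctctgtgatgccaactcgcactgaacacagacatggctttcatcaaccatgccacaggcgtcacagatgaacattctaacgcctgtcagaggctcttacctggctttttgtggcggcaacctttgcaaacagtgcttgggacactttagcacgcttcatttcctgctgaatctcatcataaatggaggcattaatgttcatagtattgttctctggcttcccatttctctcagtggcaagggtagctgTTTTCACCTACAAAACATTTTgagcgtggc

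Median fold enrichments were low at thymocyte-only BURs and high at skin-only BURs when each was set against BURs also bound in brain. Fold enrichment here is the ratio of the signal at a peak's summit to the local background, as the peak caller gave it for each library, and it is not scaled between libraries. The 99 thymocyte-only BURs had a median fold enrichment of 6.10 in replicate 1 (lowest 3.49, highest 13.2) and 5.98 in replicate 2 (lowest 3.53, highest 16.9). BURs also bound in brain had medians of 10.2 and 9.34 in the same libraries, and those of them bound in thymocytes and not in skin had 8.38 and 7.37. The 284 skin-only BURs instead had medians of 12.2 and 11.7 in the 2 skin libraries, above the 8.80 and 8.39 of BURs also bound in brain. The quartile ranges overlapped widely, at 6.71 to 17.2 and 6.34 to 16.5 against 6.08 to 14.4 and 5.94 to 14.1. The 20 skin-only BURs with both brain peaks had 6.71 and 6.00. The 46 BURs bound in both tissues had medians of 6.60 and 8.97 in thymocytes and of 8.49 and 9.01 in skin, against 18.1 and 18.8 and 10.2 and 9.62 where the brain was bound too. Among the thymocyte-only, skin-only and both-tissue brain-free BURs, the quartile ranges overlapped within each library. Those bound in both tissues stood apart from their brain-bound counterparts in thymocytes. Their upper quartiles were 8.29 and 12.3, under lower quartiles of 13.8 and 14.4. In skin these ranges overlapped. Thymocyte-only ranges with and without brain peaks overlapped too, but in replicate 1 their upper quartile of 6.86 lay under 7.27, the lower quartile of all BURs also bound in brain.

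**Figure D1:**
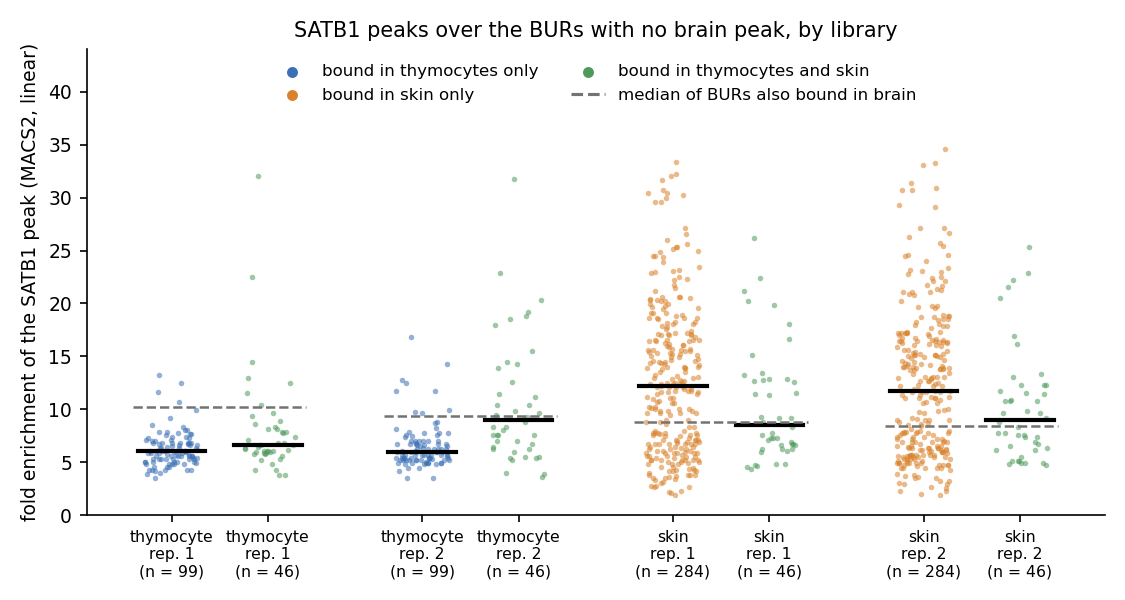
Fold enrichment (linear) of the SATB1 peak over the brain-free BURs of the 3 main patterns in the thymocyte and skin urea libraries, 1 point per BUR, with black bars for medians and dashed lines for the median of BURs also bound in brain. Thymocyte-only points lie below the dashed lines in the median (6.10 and 5.98), and skin-only points lie above them (12.2 and 11.7) and spread from 1.92 to 34.6.

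Ranked by thymocyte fold enrichment, 77 of the 5252 weakest BURs bound in both thymocyte libraries lacked a brain peak (1.47%), against 4 of the 5252 strongest (0.0762%), and the share declined across the 3 equal groups between them. Ranked by skin fold enrichment, the share without a brain peak followed no such order: it was 6.28% in the weakest of 5 equal groups, 3.18% in the middle one and 5.39% in the strongest. Replicates agreed better in skin than in thymocytes. Between replicates, the median absolute log2 ratio of fold enrichment over the brain-free BURs was 0.15 in skin (n = 374 regions) and 0.26 in thymocytes (n = 155 regions), and the replicates differed by more than 2-fold at 2 and at 9 BURs.

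Among the thymocyte-only BURs, chrX:11317938-11318474 near Bcor had fold enrichments of 12.4 and 14.3 in the 2 replicates, and its nearest brain peak was 87851 bp away. The BUR chrX:137963561-137963901, in an intron of the collagen gene Col4a5, had 13.2 and 11.8. At chr8:50735877-50736404 the replicates differed, with 5.59 against 16.9, and the mean of 11.2 had an SD of 7.97. None of these had a standard SATB1 or CTCF peak. The strongest BUR bound in both tissues, chr17:52692025-52692563, had 32.0 and 31.7 in thymocytes and 26.1 and 25.4 in skin, each above the median of BURs also bound in brain in that library. Its nearest brain peak was 15262 bp away, every 50-mer in it occurred once in the genome, and it had no standard SATB1 or CTCF peak. The next in rank were X-linked copies without such peaks, chrX:146263840-146264352 with 14.5 and 20.3 in thymocytes and 21.2 and 22.8 in skin, and chrX:146422101-146422574 with 13.0 and 19.2 and with 20.2 and 22.2. Of their 50-mers, 30.6% and 12.9% occurred once in the genome.

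The strongest skin-only BUR carried peaks of other antibodies as well. The BUR in Pcdh15, chr10:72841693-72842215, had skin SATB1 fold enrichments of 33.4 and 34.6, a skin CTCF fold enrichment of 35.6, and standard thymocyte SATB1 fold enrichments of 15.1 and 42.9. It had no peak in thymocyte urea SATB1 or thymocyte urea CTCF. Without a standard SATB1 or CTCF peak, the strongest skin-only BURs were chr8:19882026-19882718 (23.4 and 23.0), in an intron of 2610005L07Rik, chrX:145361260-145361985 (22.9 and 21.3), near Luzp4, and chrX:145485052-145485641 (22.2 and 21.8), near Ott. Of their 50-mers, 7.76%, 0% and 0% occurred once in the genome.

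The brain-free BURs often lay in sequence that occurs several times in the genome. Each BUR was cut into all its 50-mers, the read length in the labels, and each 50-mer was counted on both strands of the genome. Every 50-mer was found once at 165 of the 483 brain-free BURs (34.2%), against 86.8% of BURs also bound in brain and 74.7% of all BURs. Under 50% of the 50-mers were found once at 217 of them (44.9%), against 0.397% of BURs also bound in brain and 2.74% of all BURs. The patterns differed here too. None of the thymocyte-only BURs lay under 50%, and 77 of the 99 were wholly made of 50-mers found once. Of the skin-only BURs, 187 of 284 lay under 50% (65.8%), and 114 had no 50-mer found once at all. Of the 20 skin-only BURs with both brain peaks, 5 lay under 50% (25%), and 6 were wholly made of 50-mers found once (30%). Of the BURs bound in both tissues, 14 of 46 lay under 50%. The study's methods state that only reads with unique matches were kept, with mismatches allowed in the seed. How reads came to be placed on the 114 BURs was not tested.

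**Figure D2:**
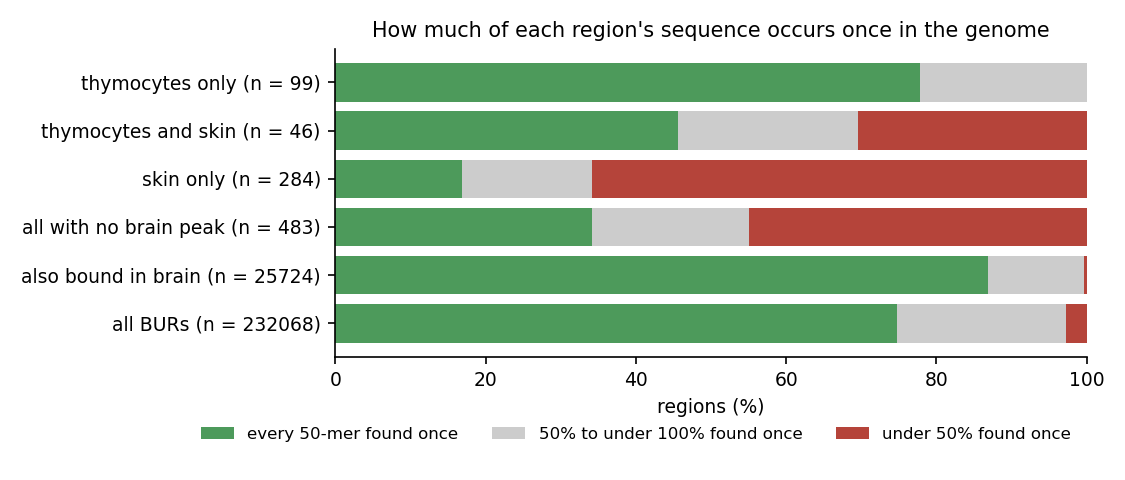
Share of regions (%) in which every 50-mer, 50% to under 100% of them, or under 50% of them were found once in the genome, for the brain-free BURs by pattern, for BURs also bound in brain and for all BURs. The bar for under 50% covers 65.8% of skin-only BURs and 0.397% of BURs also bound in brain.

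The lists differed in how they treated such sequence. From BURs with every 50-mer found once to BURs under 50%, the share with a peak went from 43.8% to 7.73% in brain replicate 1 and from 40.4% to 6.84% in brain replicate 2. In thymocytes it went from 17.0% to 2.61% and from 14.9% to 2.28%. In skin it was higher at the end, from 3.90% to 5.58% and from 3.82% to 5.50%, but lower between, at 2.85% and 2.81% of BURs with 50% to under 100% of 50-mers found once. Both skin libraries thus stood apart from the other 4 urea SATB1 libraries. The other lists were also higher at the end. Standard SATB1 went from 0.264% to 1.45% and from 0.218% to 1.18%, with 1.83% and 1.44% between. Thymocyte CTCF went from 0.159% to 0.299%, with 0.420% between, and skin CTCF from 0.426% to 1.02%, with 0.777% between. The standard SATB1 and thymocyte CTCF shares were thus highest between, unlike those of skin SATB1. Among BURs with every 50-mer found once, 165 of the 22886 bound in thymocytes or skin lacked a brain peak (0.721%), against 1.81% of all bound BURs. Even there, a missing brain peak was common for skin-only binding, at 48 of 60 BURs (80%), and rare for thymocyte-only binding, at 77 of 15318 (0.503%).

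Copies of the same sequence recurred among the brain-free BURs. At least 1 50-mer was shared with another brain-free BUR by 241 of the 483 (49.9%), and these formed 38 linked groups. The largest group held 25 BURs, all on chromosome 12. Another 22 and 21 formed groups on chromosome 7, and groups of 20, 15 and 15 lay on X. The BURs of these 6 groups had no standard SATB1 and no CTCF peak. The 16 BURs of another group were spread over 12 chromosomes. They were all skin-only, all held the telomere-type letters TTAGGGTT, and all had a standard SATB1 or CTCF peak. Members of 1 group are not separate observations of binding.

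On the chromosomes, the brain-free BURs gathered in a few places. X held 100 of them (20.7%) and chromosome 7 held 56, so that 32.3% lay on these chromosomes, which held 5.27% and 4.34% of all BURs. The share of bound BURs without a brain peak was 6.75% on X, 5.56% on chromosome 7 and 3.08% on chromosome 12, and its median over the 19 autosomes was 1.36%. Among BURs with every 50-mer found once, chromosome 7 fell to 0.396% (3 of 757), within the range of the other autosomes, while X stood at 2.28% (28 of 1227) against 0.633% for all autosomes together.

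**Figure D3:**
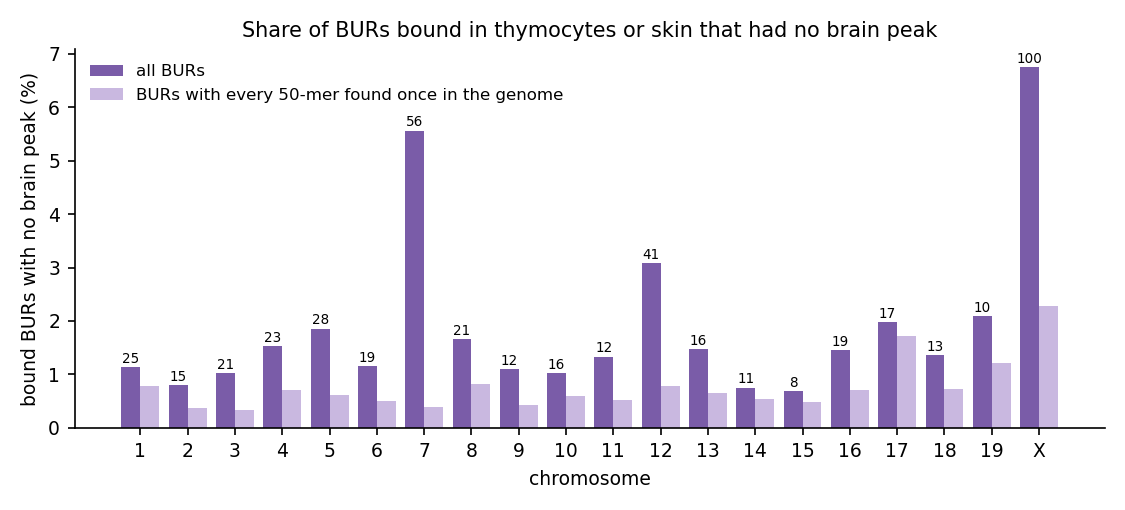
Share of BURs bound in thymocytes or skin that had no brain peak (%), by chromosome, for all BURs (dark bars, with the number of brain-free BURs above) and for BURs with every 50-mer found once in the genome (light bars). X reaches 6.75% and 2.28%, and chromosome 7 drops from 5.56% to 0.396%.

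On X, thymocyte-only BURs numbered 23 of 99, and 18 of the 77 with every 50-mer found once, so most of these lay in sequence found once. Among BURs with every 50-mer found once, the share with a peak in brain was lower on X than on autosomes, at 41.7% against 43.9% in replicate 1 and 37.4% against 40.5% in replicate 2. In thymocytes it was higher on X, at 18.7% against 16.9% and 15.9% against 14.9%, and in skin at 4.28% against 3.88% and 4.23% against 3.80%. Each library's direction on X was the same as that of its replicate. Peaks on Y numbered 88 and 86 in the brain lists, 6 and 6 in the thymocyte lists and 7 and 8 in the skin lists, beside 242 BURs on Y. The labels gave no sex, and the part of sex chromosome number in the X values was not tested.

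In stretches of 1 Mb, 230 brain-free BURs (47.6%) were alone and 185 (38.3%) lay in the 33 stretches with at least 3. The 3 densest stretches adjoined each other on chromosome 7, from 21 to 24 Mb, within clusters of the vomeronasal receptor genes Vmn1r, which encode pheromone receptors of the vomeronasal organ. They held 12, 16 and 11 brain-free BURs, of 15, 17 and 14 bound BURs. All but 1 of these 39 were skin-only, and the median share of 50-mers found once was 0% in each stretch. The nearest brain peaks were far away, at medians of 181090, 428540 and 118984 bp. A stretch on chromosome 5 with 10 brain-free BURs and stretches on X with 10, 9 and 8 had medians of 0 to 9.92% of 50-mers found once. A stretch at 3 to 4 Mb of chromosome 9 had 7, all skin-only and all with a standard SATB1 or CTCF peak. The stretch at 51 to 52 Mb on chromosome 17 was the exception, since all 50-mers were found once in the median BUR there, and all its 10 brain-free BURs lay in 1 gene.

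That gene was Satb1, which encodes the immunoprecipitated protein. It spans chr17:51875512-51972615 on the minus strand and held 19 BURs, 10 of them brain-free. All 10 overlapped exons, 1 each of exons 2 to 11 of the 11-exon transcript, although exons make up 6.43% of the gene. They were poor in A and T for BURs, at 46.6% to 60%, against a median of 70.7% over all BURs. Of the 10, 9 were skin-only, and the BUR over exon 2 also had thymocyte peaks of 6.02 and 5.47. The highest skin SATB1 fold enrichment was over exon 9, at 29.6 and 29.1, followed by exon 8 at 26.5 and 27.1 and exon 7 at 20.4 and 19.8. The lowest was over exon 4, at 5.49 and 5.61. Replicates were close together at each exon.

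Every one of the 10 also had a skin CTCF peak of like height. The skin CTCF fold enrichment was 32.3 over exon 9, 29.6 over exon 8, 21.2 over exon 7 and 5.47 over exon 4. The skin SATB1 lists held 10 peaks each in the gene, all over exons of a Satb1 transcript and none in introns alone, and the skin CTCF list held 11, again all over exons. In the same gene, brain replicate 1 had 6 peaks and brain replicate 2 had 9, of which 1 each overlapped an exon, and no exon of this transcript. The intronic BURs at chr17:51885026-51885353, chr17:51937344-51937760 and chr17:51949289-51949665 had peaks in both thymocyte and both brain libraries and in neither skin library. The in vitro map itself had 11 of its 19 peaks in the gene over exons. Skin SATB1, skin CTCF and the BUR map thus shared peaks over Satb1 exons, and the origin of these reads was not tested. Without the BURs in Satb1, 473 brain-free BURs were left.

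**Figure D4:**
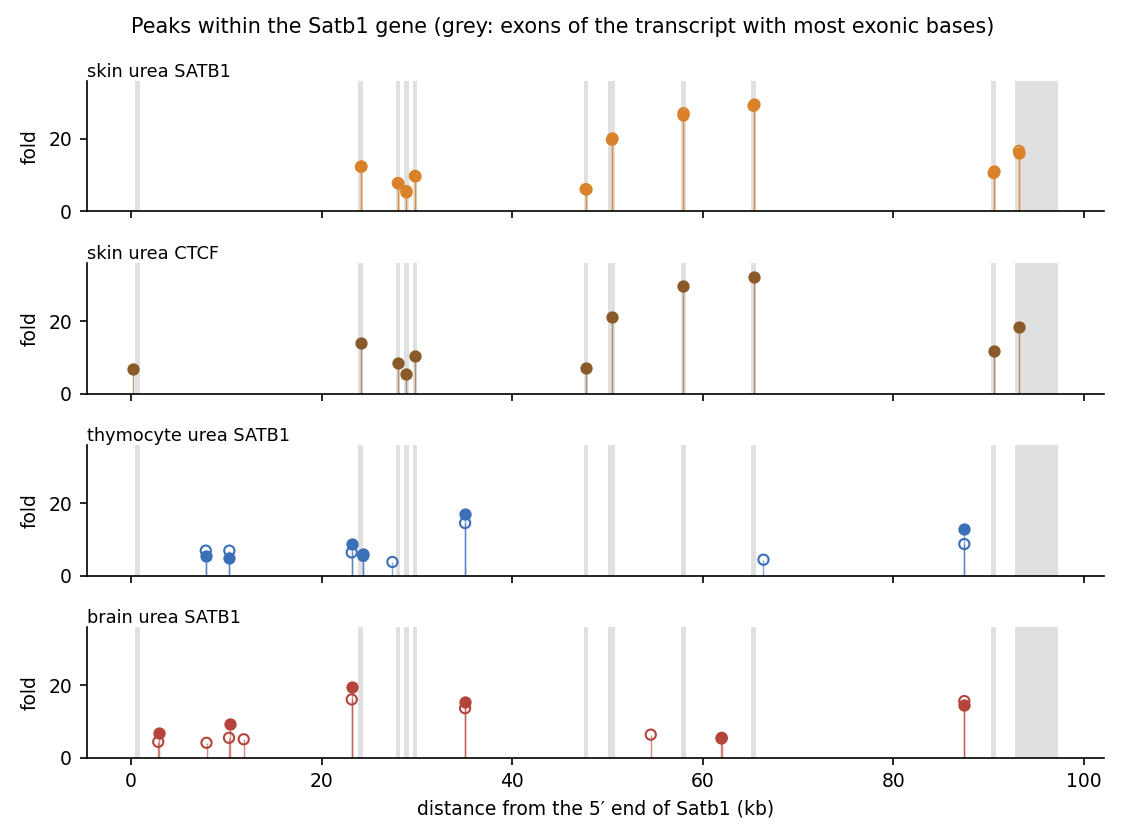
Fold enrichment (linear) of each peak within Satb1 against the distance of its centre from the 5′ end of the gene (kb), for skin SATB1, skin CTCF, thymocyte SATB1 and brain SATB1 urea ChIP-seq (filled points replicate 1, open points replicate 2, nearly coincident in skin), with exons in grey. Skin SATB1 and skin CTCF peaks stand on exons and reach 29.6 and 32.3, while thymocyte and brain peaks lie mostly between exons.

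Peaks of the other experiments were common over the brain-free BURs. Standard SATB1 peaks overlapped 95 of the 483 in replicate 1 (19.7%) and 96 in replicate 2 (19.9%), a mean of 19.8% ± 0.146 (SD, n = 2 libraries). Over all BURs these shares were 0.649% and 0.521%, and over BURs also bound in brain 0.801% and 0.723%. A skin CTCF peak overlapped 117 (24.2%), against 0.522% of all BURs and 0.797% of BURs also bound in brain. A thymocyte CTCF peak overlapped 11 (2.28%), against 0.221% of all BURs. These shares were 10.7%, 12.9% and 1.40% for standard SATB1, skin CTCF and thymocyte CTCF when thymocyte replicate 1 was left out, and 12.7% and 15.3% for standard SATB1 and skin CTCF when brain replicate 1 was left out. With the brain lists cut to 38882 peaks they were 3.51%, 3.93% and 1.04%, and over the 8 rules made with a single library per tissue they ran from 6.66% to 11.0%, from 7.41% to 13.1% and from 1.01% to 1.42%. CTCF is a zinc finger protein that binds a fixed motif and bounds chromatin loops. The standard SATB1 and CTCF lists did not enter the choice of these regions, but the skin CTCF list came from the same tissue and protocol as the skin SATB1 lists.

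These overlaps sat in the skin-bound BURs. A standard SATB1 peak was present at 27.5% ± 1.99 of the skin-only BURs and at 2.53% ± 0.714 of the thymocyte-only BURs (SD, n = 2 libraries), although the standard libraries were of thymocytes. These SDs cover the 2 standard libraries over fixed regions, some of which are copies of one another, so the difference was not tested. A skin CTCF peak was present at 104 of the 284 skin-only BURs (36.6%) and at 1 of the 99 thymocyte-only BURs. Of the 46 bound in both tissues, 17.4% had a skin CTCF peak and 13.0% a thymocyte CTCF peak. The 20 skin-only BURs with both brain peaks had standard SATB1 peaks at 22.5% ± 10.6 (SD, n = 2 libraries). Of these 20, 5 had a skin CTCF peak (25%) and 2 a thymocyte CTCF peak (10%). Such overlaps were therefore not particular to skin-only BURs without a brain peak.

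**Figure D5:**
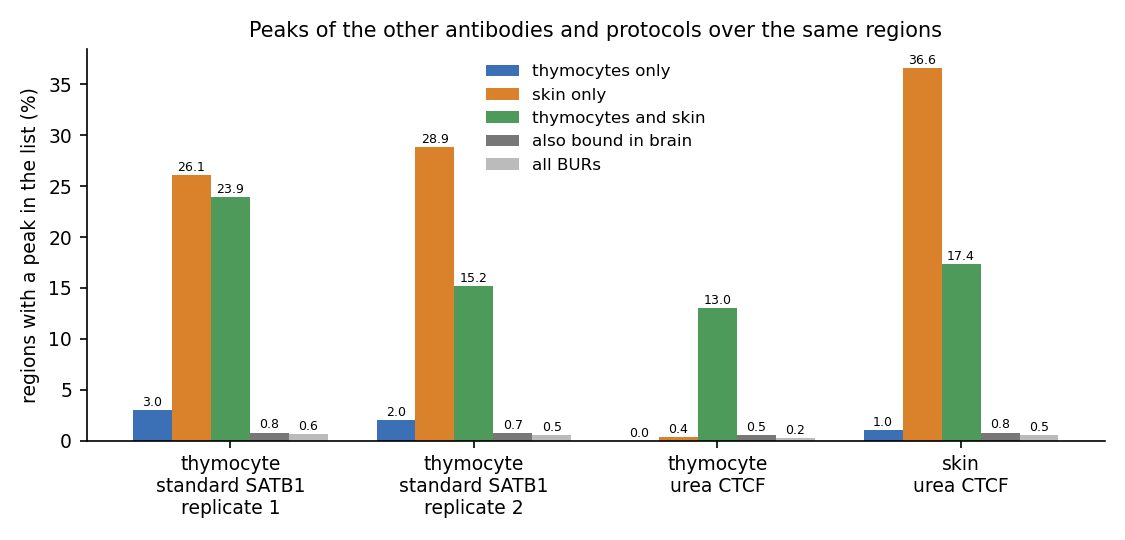
Share of regions (%) with a peak of standard SATB1 ChIP-seq in thymocytes (2 replicates), of CTCF in thymocytes and of CTCF in skin, for brain-free BURs by pattern, BURs also bound in brain and all BURs. Skin-only BURs reach 26.1%, 28.9% and 36.6% in the standard SATB1 and skin CTCF lists, and the BURs also bound in brain stay below 1% in each.

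The same BURs tended to carry several of these peaks. A standard SATB1 peak and a skin CTCF peak coincided at 92 brain-free BURs, 80 of them skin-only, and 77 had a peak in both standard libraries and skin CTCF. All 11 with a thymocyte CTCF peak were among these 77. The 92 had a median AT content of 59.2% and 7.09 CpG per kb, whereas the 347 with neither kind of peak had 67.3% and 2.96. Among BURs also bound in brain, the 111 had 63.0% and 9.21, and the 25361 with neither kind had 69.5% and 2.89. This composition was therefore not particular to brain-free BURs. At the 116 brain-free BURs with both skin SATB1 peaks and a skin CTCF peak, the median fold enrichment was 11.4 for skin SATB1 (mean of 2 libraries) and 16.2 for skin CTCF, and SATB1 was the higher at 21. At the 116 such BURs also bound in brain, the medians were 13.0 and 7.27, and SATB1 was the higher at 58. BUR by BUR, the ratio of skin SATB1 to skin CTCF had a median of 0.893 (quartiles 0.724 and 0.958) in the brain-free BURs. In those also bound in brain it was 1.00 (quartiles 0.918 and 1.79). Fold enrichments of different libraries share no scale, so these are values side by side.

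Of the 483, 136 had a standard SATB1 or a CTCF peak (28.2%), against 1.43% of BURs also bound in brain and 1.26% of all BURs. The other 347 had no standard SATB1 and no CTCF peak (71.8%). Among these were 96 of the 99 thymocyte-only BURs, 170 of the 284 skin-only BURs and 34 of the 46 bound in both tissues. X held 90 of the 347. Median in vitro fold enrichment in this set was 5.06 for thymocyte-only, 10.3 for skin-only and 6.73 for both.

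Binding in vitro had lower medians at the brain-free BURs than at BURs also bound in brain, but not in every subset of skin-only BURs. The in vitro fold enrichment of the BUR had a median of 7.13 over the brain-free BURs (quartiles 4.78 and 11.2), 8.70 over BURs also bound in brain (quartiles 6.22 and 11.8) and 5.88 over all BURs. It was 5.12 for thymocyte-only, 8.08 for skin-only and 6.73 for both-tissue BURs. The counterparts also bound in brain had higher medians, of 8.15, 10.3 (n = 20) and 10.2. With every 50-mer found once, the thymocyte-only and skin-only medians were 4.80 and 6.05, both under the 8.58 of BURs also bound in brain. By pattern, the latter had 8.08 for thymocyte-only BURs and 5.65 for the 6 skin-only ones. In that subset the thymocyte-only median lay under its counterpart and the skin-only median did not, with only 6 BURs to compare. The difference of the medians between brain-free BURs and those also bound in brain, −1.58, was −1.01 when thymocyte replicate 1 was left out and −3.23 with every 50-mer found once. Thymocyte-only BURs were also short, with a median length of 389 bp, against 511 bp for skin-only BURs and 498 bp for BURs also bound in brain. The SATB1 summit in vivo lay close to the summit in vitro. The median distance was 45 and 37 bp for thymocyte-only BURs in the 2 thymocyte libraries and 27.5 and 27 bp for skin-only BURs in the 2 skin libraries, against 36 bp in both thymocyte libraries for thymocyte-only BURs also bound in brain.

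The base composition differed as well. The median AT content was 66.1% over the brain-free BURs, 69.4% over BURs also bound in brain and 70.7% over all BURs. Thymocyte-only BURs stood at 68.8%, BURs bound in both tissues at 66.0% and skin-only BURs at 65.8%. The difference of −3.29 percentage points between brain-free BURs and those also bound in brain was −2.12 without BURs that overlap a standard SATB1 or CTCF peak and −1.36 with every 50-mer found once. The longest run without C or without G had a median of 39 bp in the brain-free BURs and in those also bound in brain. Its median was 41 bp in thymocyte-only and 37 bp in skin-only BURs.

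Short motifs were searched on both strands of each BUR. The letters AATATATTT, the core unwinding element of the matrix attachment region of the immunoglobulin heavy chain enhancer, were found in 3.93% of the brain-free BURs, in 8.72% of BURs also bound in brain and in 8.74% of all BURs. They were in 8 of the 99 thymocyte-only BURs (8.08%) and in 5 of the 284 skin-only BURs (1.76%). The letters TATATATA, which can overlap that element, were in 16.2% of thymocyte-only and 4.58% of skin-only BURs, beside 12.2% of all BURs. The telomere-type letters TTAGGGTT were in 35 skin-only BURs (12.3%), in 1 thymocyte-only BUR and in none of those bound in both tissues, beside 1.56% of all BURs and 2.00% of BURs also bound in brain. Of these 35 skin-only BURs, 17 had a standard SATB1 peak and 17 a skin CTCF peak, and their median skin SATB1 fold enrichment was 16.5 against 10.7 for skin-only BURs without the letters. A group of 22 linked BURs on chromosome 7 held 18 with these letters, and none of the 22 had a standard SATB1 or CTCF peak. The group of 16 linked skin-only BURs over 12 chromosomes all held the letters, and all had such a peak. Linked copies thus make up much of the count, and the overlaps and fold enrichments of the 35 are not separate observations. A letter match is a description of these windows only.

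A brain peak lay within 10 kb of 44.7% of the brain-free BURs, beside 71.0% of BURs without a urea SATB1 peak in any of the 6 libraries. The nearest brain peak lay at a median of 15005 bp (quartiles 2820 and 83190), and it was within 10 kb at 216 of the 483. Their share was 67.6% when brain replicate 1 was left out and 78.8% with every 50-mer found once. Over the 8 rules made with a single library per tissue, it ran from 65.5% to 77.0%, so the gap to 71.0% depended on the rule. The 71.0% covers BURs with any share of 50-mers found once. Thymocyte-only BURs had a median of 2983 bp, with 75 of 99 within 10 kb, and the 10 with both thymocyte peaks and 1 skin peak had a median of 2480 bp. Skin-only BURs had a median of 42712 bp, with 86 of 284 within 10 kb and 96 beyond 100 kb. BURs with no urea SATB1 peak had a median of 4830 bp. Just inside the rule, 7 brain-free BURs had a brain peak within 100 bp, the closest at 18 bp. Just outside it, the 341 BURs with a peak in brain replicate 1 alone had a median brain fold enrichment of 5.56 and the 178 with one in replicate 2 alone had 5.52, where BURs with both had 14.0 and 13.7. On the other side of the rule, 602 BURs without a brain peak had a peak in 1 thymocyte library only, and 131 had one in 1 skin library only.

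The intergenic share was close to that of all BURs, but the starts of protein-coding genes were nearer to skin-only BURs. Intergenic sequence, outside genes of every type in GENCODE vM1, held 321 of the 483 (66.5%), against 64.6% of BURs also bound in brain and 65.8% of all BURs. Exons were overlapped by 32 (6.63%), 10 of them in Satb1, against 3.39% of all BURs. The nearest start of a protein-coding gene lay at a median of 59835 bp over the brain-free BURs, 37628 bp over skin-only, 200565 bp over thymocyte-only and 134412 bp over all BURs. It lay within 1 kb of 8 (1.66%), all of them skin-only, against 0.921% of all BURs and 0.937% of BURs also bound in brain. Of these 8, 7 had a standard SATB1 or a CTCF peak. The nearest start was more than 100 kb away from 64.6% of the thymocyte-only BURs, 28.5% of the skin-only BURs and 56.0% of all BURs. These distances count every BUR, and 187 of the 284 skin-only BURs had under 50% of their 50-mers found once. Copies of 1 sequence are not separate observations of distance.

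Lists of genes known for their roles in these tissues held brain-free BURs at 2 genes. Of 33 T cell genes, including coreceptors, recombinases and transcription factors, 1 had a brain-free BUR in its body or within 10 kb, and that was Satb1 with its 10. These made 2.07% of the brain-free BURs, where 0.0816% of BURs also bound in brain and 0.0849% of all BURs lay at genes of the list. None of 31 epidermal genes (keratins, cornified envelope proteins, desmosomal cadherins and regulators) had one, and the 20 BURs bound in thymocytes or skin that lay at them had peaks in both brain libraries. At a share of 1.81% over all bound BURs, 20 are too few to read anything from this. Of 33 neuronal genes, Nrxn3, a synaptic adhesion gene, had 1 among its 28 bound BURs. It was thymocyte-only, at chr12:91538932-91539215 in an intron, with a mean fold enrichment of 6.28 and a brain peak 2976 bp away. The neuronal list held 0.207% of the brain-free BURs, 1.13% of BURs also bound in brain and 1.12% of all BURs.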

How the data were processed

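Peak lists of 11 libraries were used, and the groups came from the labels. The authors mapped 50 bp single-end reads to NCBI37/mm9 with bowtie2 2.3.1, keeping unique matches, and called peaks per library with MACS2 2.2.7 at a q of 0.01. The control given to the peak caller is not given in the sources used here. The deposited fold enrichment is a ratio to local background, and the deposited −log10 q-value and −log10 p-value refer to each list alone. The display score of the authors' peak caller was not used. The lists hold no counts, so depth was not measured here and no counting interval is given. The study states that total aligned reads were similar between the cell types in urea ChIP-seq.

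Overlaps of at least 1 bp, distances and medians were computed with Python 3.11.15 and numpy 2.4.6, and 50-mers were counted with numba 0.67.0 on NCBIM37 sequence read with pysam 0.24.0. Functions were tested on simulated data. Plots used matplotlib 3.10.9. Genes came from GENCODE vM1 of the same build, and symbols absent there were matched through RefSeq synonyms. Coordinates are 1-based. The regions named were the 3 of highest mean fold enrichment in each pattern, with and without standard SATB1 or CTCF peaks, the genes on 3 fixed lists, and the 3 densest stretches of 1 Mb with the Satb1 BURs added after their values were seen. The regions and the gene lists were chosen with earlier results of these data known. The samples without a peak list here, among them a second thymocyte CTCF library, inputs and Satb1 knockouts, were not used. A pair of the regions so named is not reported here.

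Thresholds, overlap rules, list sizes, libraries left out and subsets of BURs were varied as alternatives.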

Additional observations from a re-analysis of the deposited data

Results flagged for a closer look

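The map also holds 6312 BURs on Y and on unplaced or unlocalised sequences, which the report leaves out. There, 175 were bound in thymocytes or skin by the same rule, and 165 of them had no brain peak. This signal lies outside the main measurement. Of the 165, 160 lay on sequences on which neither brain list held any peak: the BUR map had peaks on 33 sequences and the brain lists on 22. On Y, 10 BURs were bound in thymocytes or skin and 4 had no brain peak. Why the brain lists cover fewer sequences was not tested.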

How the results depend on the processing

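A value was counted as moved when it shifted by more than the SD over the 8 rules made with a single library per tissue, and a count when it shifted by more than 1.5 times. Of the values under the alternatives, 96 did not move and 59 did, and no difference changed sign. With the brain lists cut to 38882 peaks, 4150 BURs met the rule (15.5% of those bound), the shares with standard SATB1, skin CTCF and thymocyte CTCF peaks were 3.51%, 3.93% and 1.04%, the differences in AT content and in vitro fold enrichment were −1.60 and −3.48, 39.3% lay within 10 kb of a brain peak and 63.9% were intergenic. This alternative admits BURs with weaker brain peaks by its construction. The next subsets were chosen after seeing the data. With every 50-mer found once, the count was 165, the standard SATB1 and thymocyte CTCF shares 13.3% and 1.21%, the differences −1.36 and −3.23, and the 10 kb and intergenic shares 78.8% and 63.6%. Without X, the standard SATB1, skin CTCF and thymocyte CTCF shares were 22.8%, 28.2% and 2.87%, and the 10 kb and intergenic shares 50.1% and 64.0%. Without BURs in Satb1, the intergenic share was 67.9%. With 50% of the BUR covered, the standard SATB1 and thymocyte CTCF shares were 21.4% and 4.63%. With summits inside the BUR, the skin and thymocyte CTCF shares were 22.1% and 2.84%. With no brain peak within 1 kb, the thymocyte CTCF share was 1.62% and the 10 kb share 38.1%. Without BURs under a standard SATB1 or CTCF peak, the AT difference was −2.12 and the 10 kb and intergenic shares 36.6% and 70.9%. The share within 5 kb was 34.8%, and 70.4% lay outside protein-coding genes. Leaving out each library in turn gave counts of 543 to 929, 1.86% to 3.08% of bound BURs, shares of 10.7% to 19.9% for standard SATB1, 12.9% to 23.6% for skin CTCF and 1.40% to 2.06% for thymocyte CTCF, differences of −3.40 to −2.40 in AT content and −2.35 to −1.01 in fold enrichment, 46.4% to 67.6% within 10 kb and 65.9% to 67.6% intergenic. The cause of these shifts was not tested. Limits on −log10 q of at least 5 moved no value. No paired analysis was possible because no result came from a test. The lists hold no read counts, so the binding level that a missing brain peak would still allow cannot be given.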
